A study of Homo sapiens with 134 samples.

Results

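The equal-dose comparison set Fe ions against γ-rays at 1 Gy in HBEC3KT, a human bronchial epithelial cell line immortalized without oncogenes by overexpression of CDK4 and telomerase. Every irradiated sample was expressed as a log2 ratio to the mock-irradiated sample of the same replicate and time point. The comparison used 58 of the 134 arrays of the series, of which 18 were Fe 1 Gy arrays, 12 were γ 1 Gy arrays, 16 were mock arrays of Fe and 12 were mock arrays of γ. After averaging of technical replicates these were 48 samples and 24 ratios, at 1, 4, 12 and 24 h after irradiation. The Fe ratios came from replicates 08A, 08C and 09C and the γ ratios from 08C, 09A and 09C. A replicate of 1 radiation type is called a run below. The 6 runs were the unit of the tests on means over the 4 times. The tests of the ratios at single times, and of a change between times, treated the 24 ratios as independent. All groups were the same cell line, grown in serum-free keratinocyte medium, and the radiation that the labels call x-ray is the γ-ray exposure from a caesium source of the study's methods. The labels separate replicates by code and name no separate line or donor. The codes were read as experimental campaigns from the experiment dates in the study's methods. The p-values therefore measure the spread between repeated experiments on 1 immortalized line. In the tests at single times that spread was pooled over the 24 ratios and taken as equal at the 4 times. The p-values at 24 h thus do not measure the spread at 24 h alone.

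Fe ions of high energy deposit dense tracks of ionization along their path, whereas γ-rays spread the same dose over many sparse tracks. Both break DNA and activate p53, the transcription factor that induces the cyclin-dependent kinase inhibitor CDKN1A, which holds cells before S phase. Genes needed for DNA replication are switched on at the G1 to S transition by E2F factors, which are restrained by the retinoblastoma protein when CDK activity is low. Cyclin-dependent kinase 4, overexpressed in this line, phosphorylates that protein. The respiratory chain of mitochondria is built from many small subunits encoded in the nucleus, and ETS family factors are known to bind the promoters of several of them.

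The raw median bead signal of the 58 arrays lay between 51.5 and 102.2. Among these 58 arrays no chip held both radiation types. Some arrays of the other doses and of the 0 h reference, used below, shared a chip with the other type. Mock and 1 Gy arrays shared a chip in 3 of 12 Fe pairs and 4 of 12 γ pairs, and at 24 h in 0 of 3 Fe pairs and 2 of 3 γ pairs. The mean log2 signal of the basal epithelial markers KRT5, KRT14, ITGB4 and LAMB3 was 13.08, 12.57, 12.25 and 13.03, against a median of 6.22 over all probes, and that of ITGA6 was 6.52. Markers of secretory, ciliated, fibroblast and endothelial cells were between 5.89 and 6.64. Of the leukocyte markers CD14 was measured at 7.98 and the other 3 between 6.16 and 6.38. Of the squamous markers KRT10 was at 11.14 and the other 4 between 6.1 and 7.15. The cells therefore carried the markers of basal epithelium, with KRT10 also well above the background.

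Promoter sequences are shown for 5 genes whose values are given below, because each holds an E2F or an ETS motif. CDC25A is in the G1/S list counted below. E2F2, ROMO1, ATP5PF and SNRPB2 are in neither the G1/S nor the respiratory chain list. Each is the 120 bases before the RefSeq start of the gene on GRCh38.p14, written 5′ to 3′ on the gene's strand. In CDC25A, a phosphatase that activates CDK2, at chr3:48188418-48188537 on the minus strand, and in E2F2, at chr1:23531234-23531353 on the minus strand, capitals mark the E2F motif TTTGGCGC.
CDC25A: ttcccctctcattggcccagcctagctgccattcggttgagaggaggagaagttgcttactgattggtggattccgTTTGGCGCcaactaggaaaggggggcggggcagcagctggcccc
E2F2: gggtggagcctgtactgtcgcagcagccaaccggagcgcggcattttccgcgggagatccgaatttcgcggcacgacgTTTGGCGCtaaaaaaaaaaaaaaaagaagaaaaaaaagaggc
In ROMO1, a protein of the mitochondrial inner membrane, at chr20:35699285-35699404 on the plus strand, in ATP5PF, a coupling factor of ATP synthase, at chr21:25735055-25735174 on the minus strand, and in SNRPB2, a protein of the U2 small nuclear ribonucleoprotein, at chr20:16729906-16730025 on the plus strand, capitals mark the ETS motif CCGGAAG or its reverse complement.
ROMO1: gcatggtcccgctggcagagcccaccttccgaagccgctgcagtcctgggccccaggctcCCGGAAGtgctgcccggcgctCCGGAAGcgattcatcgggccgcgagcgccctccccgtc
ATP5PF: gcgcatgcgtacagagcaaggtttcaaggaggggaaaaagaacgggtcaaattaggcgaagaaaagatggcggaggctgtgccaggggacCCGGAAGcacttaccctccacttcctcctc
SNRPB2: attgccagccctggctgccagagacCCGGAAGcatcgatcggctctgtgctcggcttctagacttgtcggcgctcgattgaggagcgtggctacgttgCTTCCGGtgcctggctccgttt
TTTGGCGC or TTTCCCGC on either strand was found in the 250 bases before the start of 13 of the 28 tested G1/S target genes of E2F with a promoter sequence (46.4%), against 1.96% of all 27305 promoters and 2.91% of those of the tested genes. CCGGAAG on either strand was found in 12 of 33 tested respiratory chain genes (36.4%), against 8.82% of all promoters and 14.3% of those of the tested genes. These matches are letters in a window and not measured binding sites.

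At the early times the 2 radiation types were not separated gene by gene. Of 24350 tested probes, 0 differed between Fe and γ at 1 h, 0 at 4 h and 0 at 12 h at an adjusted p of 0.05 in limma (0% at each time), with 584, 984 and 737 probes below an unadjusted p of 0.05. The SD of the differences over all probes was 0.132, 0.155 and 0.154 at these times on the log2 scale, and 0.287 at 24 h. At 24 h 571 probes differed, 2.34% of those tested, of which 346 (1.42%) were higher and 225 (0.924%) lower after Fe. With arrays scaled to a common median in place of quantile normalization, 81 probes were called, 0 higher and 81 lower, and the median difference over all probes was -0.09. With the shared campaigns 08C and 09C as a replicate block 571 probes were called, of which 379 were the same. The mean over the 4 times gave 0 called probes (0%) and 1687 below an unadjusted p of 0.05. The test of a change of the difference between times gave 0 (0%), with 1547 below an unadjusted p of 0.05 and a lowest adjusted p of 0.0732, so the 24 h difference was not shown to exceed that at the other times.

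Of the p53 targets, TIGAR rose over the mean of both radiation types. TIGAR, a p53 target that lowers fructose-2,6-bisphosphate and with it glycolysis, was at log2 ratios of 0.61, 0.56 and 0.60 at 4 h in Fe 08A, 08C and 09C, and of 0.41, 0.45 and 0.27 in γ 08C, 09A and 09C. All 6 runs were above their mocks. Its response averaged over the radiation types was 0.48, with an adjusted p of 0.0198 in limma, and it was the 1 probe of the shared response that was called at 4 h (0.00411%). No probe of the shared response was called at 1, 12 or 24 h (0% at each). The TIGAR call was lost when any 1 of the 6 runs was left out, with the authors' normalized values, with scaling to a common median and with a trended robust variance prior. The Fe values of TIGAR were all above the γ values, but the difference of 0.22 (95% interval -0.08 to 0.51) had an adjusted p of 0.999.

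CDKN1A was above its mock in every run at 4 h. The Fe ratios were 0.60, 0.66 and 0.82 and the γ ratios 0.65, 0.44 and 0.46, so the runs of the 2 types overlapped. The mean was 0.69 ± 0.11 (SD, n = 3) after Fe and 0.52 ± 0.11 (SD, n = 3) after γ, and the difference of 0.17 had a 95% interval of -0.25 to 0.60 and an adjusted p of 0.999. The response averaged over both types, 0.61, had an adjusted p of 0.0677. At 24 h the Fe ratios of CDKN1A were 0.18, -0.43 and 0.12 and the γ ratios 1.03, 0.27 and 0.19. All γ values were then above the Fe values, and the difference of -0.54 (95% interval -0.96 to -0.12) had an adjusted p of 0.152. A second, dimmer probe of CDKN1A gave a difference of 0.14 at 24 h (95% interval -0.17 to 0.44). Over the 4 times the difference of the brighter probe was -0.03 with an interval of -0.20 to 0.13.

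**Figure D1:**
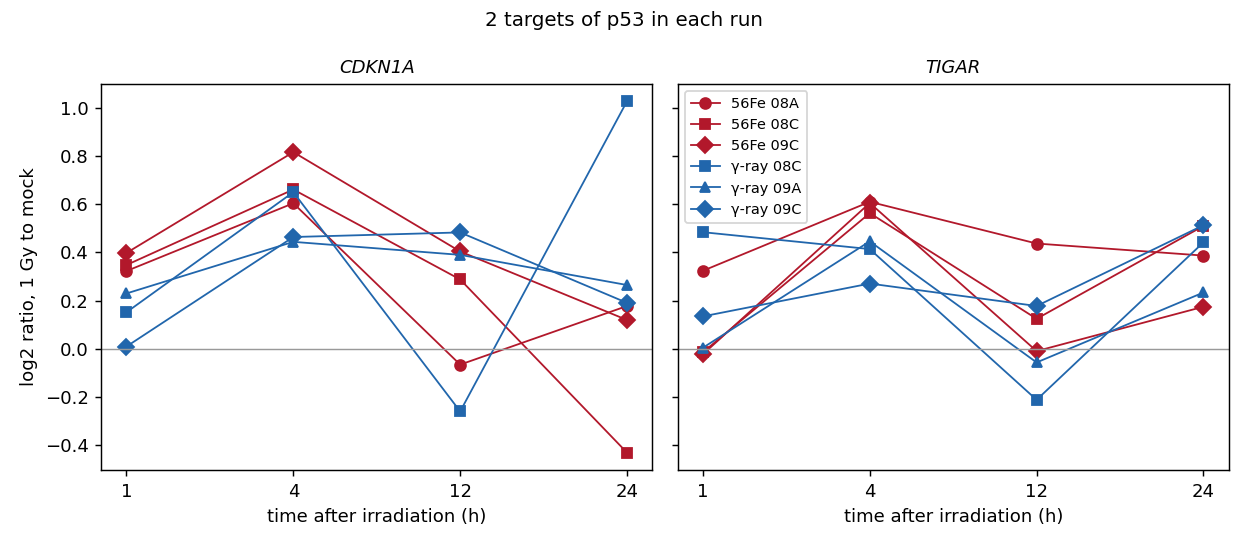
Log2 ratio of 1 Gy to the mock of the same run (vertical axis) for CDKN1A and TIGAR by hours after irradiation (horizontal axis). Each point is 1 run and each line joins the times of that run. At 4 h all 6 runs of both genes lie above 0.

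Other p53 targets moved less evenly at 4 h. GDF15, a secreted stress cytokine, was at 0.02, 0.67 and 0.39 after Fe and 0.55, 0.25 and 0.13 after γ, with a difference of 0.05 (interval -0.45 to 0.55). SESN1, an inhibitor of mTORC1 signalling, was at -0.09, 0.45 and 0.62 after Fe and 0.15, 0.31 and 0.30 after γ. MDM2, the ubiquitin ligase that degrades p53, was at 0.39, 0.23 and 0.33 after Fe and -0.53, -0.04 and 0.74 after γ, where the runs did not share a direction. Of the 18 tested p53 targets of arrest and feedback, 15 were above 0 in the difference at 4 h. The median was 0.157, against 0.011 over all genes, and the median ratio was 0.319 after Fe and 0.149 after γ. At 12 h 11 of the 18 were below 0, with a median of -0.094, and at 24 h 11 were, with a median of -0.157 and 1 called lower. Over all tested genes the 24 h median was -0.041, and 1.2% were called lower. None of the 18 differed between the types at 4 h, and neither did any of the 16 cell death targets or the 10 metabolic and secreted targets.

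The G1/S target genes of E2F had lower ratios after Fe than after γ at 4 h, with 0 genes past the test across all probes (adjusted p of 0.792 or more for those named). Of 31 tested genes 29 had a difference below 0. The median difference was -0.396, against 0.011 over all genes. At an unadjusted p of 0.05, 19 of the 31 were lower, where 1.55% of all tested genes were, and in 18 of the 31 the Fe runs were all below the γ runs, where 4.71% of all tested genes were. The count of 19 was 1 with the chip as a random block, 0 without mock subtraction, 0 with ratios to the 0 h reference and 5 with median scaling. It was 9 without γ 08C and 10 without γ 09A, γ 09C or Fe 09C. The median ratio of the list was -0.281, -0.218 and -0.529 in Fe 08A, 08C and 09C. It was 0.030, -0.012 and 0.067 in γ 08C, 09A and 09C. All 3 Fe runs were therefore below their mocks, and the γ runs lay close to theirs.

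CDC25A, a gene of the list, and E2F2, which is outside the list, show the pattern. CDC25A, whose promoter with its E2F motif is shown above, was at -0.45, -0.48 and -0.65 after Fe and at 0.06, 0.04 and 0.24 after γ. The groups did not overlap and the difference was -0.64 ± 0.15 (SE), with an adjusted p of 0.994 and an unadjusted p of 0.000408. E2F2, an activating E2F factor, was at -0.61, -0.76 and -0.96 after Fe and at 0.28, -0.10 and -0.02 after γ, and its difference of -0.83 had an adjusted p of 0.792. CDCA7, a chromatin protein that is induced by E2F and MYC, was at -0.88, -0.783 and -0.999 after Fe and -0.02, -0.07 and -0.20 after γ, with a difference of -0.79 and an adjusted p of 0.792. Dimmer second probes gave -0.45 for CDC25A and -0.04 for CDCA7. SLBP, which binds the stem-loop of histone mRNAs, was at -0.47, -0.39 and -0.57 after Fe and -0.12, -0.04 and 0.18 after γ. MCM5, a subunit of the replicative helicase, was at -0.56, -0.22 and -0.56 after Fe and 0.03, -0.13 and -0.04 after γ. CCNE2, the cyclin partner of CDK2, overlapped between the types, at -0.04, -0.22 and -0.49 after Fe and -0.08, 0.29 and -0.21 after γ. Also outside the list, KLC3 and SNX18 had the smallest p-values at 4 h among probes with a gene symbol whose runs did not overlap. They differed by 0.52 and -0.42, both at an adjusted p of 0.493. The lowest adjusted p of any probe at 4 h was 0.334.

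**Figure D2:**
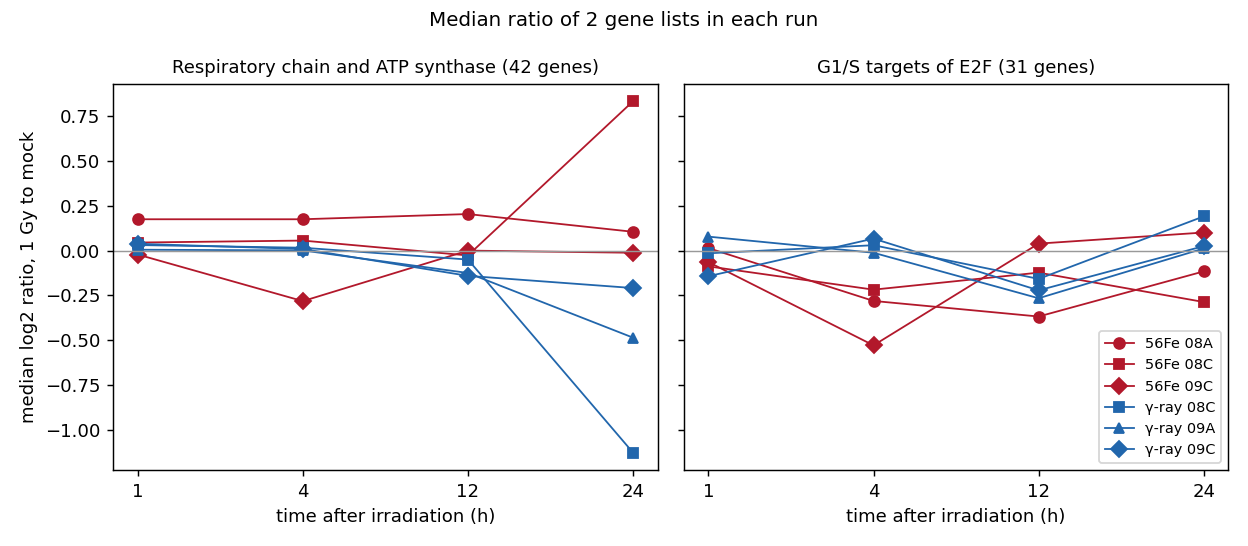
Median log2 ratio of 1 Gy to mock over the tested genes of a list (vertical axis) in each of 6 runs by hours after irradiation (horizontal axis). The 31 G1/S target genes of E2F are lower in the 3 Fe runs at 4 h, and the 42 respiratory chain genes are lower in the 3 γ runs at 24 h, where Fe 08C reaches 0.834.

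The direction of the E2F pattern at 4 h was not the same with every reference. Relative to the unirradiated reference taken at 0 h, the median of the list in the 4 h mocks was 0.699, 0.886 and 1.321 in the Fe runs and 0.355, 0.097 and -0.162 in the γ runs. In the 1 Gy samples it was 0.233, 0.662 and 0.753 in the Fe runs and 0.381, 0.089 and -0.086 in the γ runs. With ratios to the 0 h reference the median difference was 0.421 and 3 of 31 genes were below 0, the opposite direction. With 1 Gy levels compared without the mock it was -0.425, with 28 of 31 genes below 0, the direction of the reported fit. The part that the differing mocks have in this difference was not tested. At 12 h the runs overlapped. The median of the list was -0.368, -0.123 and 0.039 in the Fe runs and -0.158, -0.266 and -0.222 in the γ runs, with a median difference of 0.046.

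Both types were also given at another dose, against the same mocks. At 4 h the E2F list was at -0.139, -0.139 and -0.064 after 0.5 Gy of Fe and at -0.105, -0.008 and -0.012 after 3 Gy of γ. These values share their mocks with the 1 Gy values and stand at unequal doses, so no test was made of them.

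At 24 h the respiratory chain was the list with the most called genes. Of 42 tested genes of the respiratory chain and ATP synthase, 24 were higher after Fe and 0 were lower at an adjusted p of 0.05 in limma, where 1.99% of all tested genes were higher and 1.2% lower. The median difference was 0.87, against -0.041 over all genes, and 38 of 42 were above 0. The Fe runs were all above the γ runs in 28 of them, against 7.05% of all tested genes. The median ratio of the list was 0.105, 0.834 and -0.012 in Fe 08A, 08C and 09C and -1.128, -0.486 and -0.209 in γ 08C, 09A and 09C. Each γ run was below its mock, and among the Fe runs 08C alone was far above it.

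Subunits of ATP synthase, complex I, the bc1 complex and cytochrome c oxidase were among the called genes. ATP5PF, which is not in the respiratory chain list, was at 0.13, 0.10 and 0.18 after Fe and at -1.05, -0.53 and -0.62 after γ. Its 3 Fe runs differed little among themselves, and the difference of 0.87 ± 0.15 (SE) had an adjusted p of 0.00951. ATP5MG, a subunit of the membrane part of ATP synthase, was at 0.10, 1.58 and 0.08 after Fe and -1.28, -0.72 and -0.56 after γ, with a difference of 1.44 and an adjusted p of 0.0112. ATP5MC1, a subunit of the c-ring of the synthase, was at 0.03, 1.23 and 0.07 after Fe and -1.36, -0.69 and -0.41 after γ. The 24 h value of Fe 08C stood above both other Fe runs in ATP5MG and ATP5MC1 but not in ATP5PF. NDUFA2, an accessory subunit of complex I, was at 0.37, 1.01 and -0.005 after Fe and -1.19, -0.59 and -0.14 after γ, a difference of 1.10 with an adjusted p of 0.0146. NDUFA1, also of complex I, differed by 1.42, UQCR10 of the bc1 complex by 1.14 and COX7B of cytochrome c oxidase by 1.47. In a count by gene family chosen after the values were seen, 19 of 43 complex I subunits and assembly factors, 3 of 8 genes of the bc1 complex, 9 of 22 of cytochrome c oxidase and 8 of 18 of ATP synthase were higher after Fe, and 0 were lower. Of 77 mitochondrial ribosomal proteins 19 were higher and 0 lower. Over all tested genes, by their brightest probes, 1.99% were called higher and 1.2% lower.

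**Figure D3:**
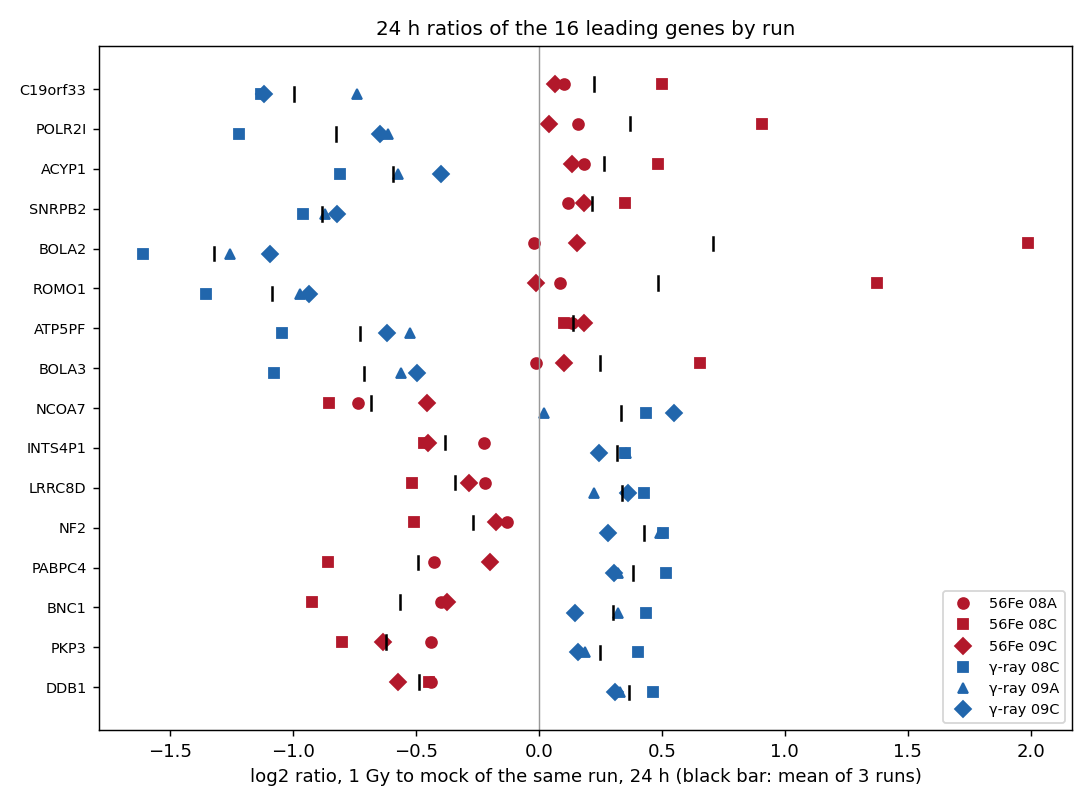
Log2 ratio of 1 Gy to mock at 24 h (horizontal axis) of the 16 genes named by smallest p, with 1 point for each of 3 Fe and 3 γ runs and a black bar at the mean of each 3. The Fe and γ points of each gene do not overlap, as the choice of these genes required.

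Among the 8 genes named for their smallest p in the direction higher after Fe, C19orf33 had the smallest p. Its ratios were 0.10, 0.50 and 0.07 after Fe and -1.13, -0.74 and -1.12 after γ, and the difference of 1.22 ± 0.17 (SE) was 2.33-fold, with an adjusted p of 0.00819. The change lay mostly in the γ arm. POLR2I, a subunit of RNA polymerase II, was at 0.16, 0.91 and 0.04 after Fe and -1.22, -0.61 and -0.65 after γ, a difference of 1.196 with an adjusted p of 0.00912. ROMO1 was at 0.09, 1.38 and -0.01 after Fe and -1.35, -0.97 and -0.94 after γ, a difference of 1.57. SNRPB2 was at 0.12, 0.35 and 0.18 after Fe and -0.96, -0.87 and -0.82 after γ, so that the runs of each type lay close together, and differed by 1.10.

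BOLA2, a cytosolic protein of iron-sulfur cluster handling whose near-identical gene copy the probe may also read, was at -0.02, 1.99 and 0.15 after Fe and -1.61, -1.26 and -1.09 after γ. Its difference of 2.03 ± 0.34 (SE) was 4.08-fold. That SE comes from the spread pooled over the 4 times, whereas the SD at 24 h was 1.114 after Fe and 0.263 after γ. BOLA3, its mitochondrial relative, differed by 0.96 and ACYP1, an acylphosphatase, by 0.86. ROMO1, SNRPB2, BOLA2, BOLA3, ACYP1 and ATP5PF had an adjusted p of 0.00951 each. The ETS motif printed above for ROMO1, ATP5PF and SNRPB2 was in the promoters of 56 of 243 genes higher after Fe (23%), 21 of 161 lower after Fe (13%) and 14.3% of those tested.

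The genes called lower after Fe at 24 h were below the mock after Fe and above it after γ in most runs. NCOA7, a nuclear receptor coactivator, was at -0.74, -0.85 and -0.46 after Fe and 0.44, 0.02 and 0.55 after γ, a difference of -1.02 ± 0.15 (SE) with an adjusted p of 0.00862. PABPC4, a cytoplasmic poly(A)-binding protein, was at -0.42, -0.86 and -0.20 after Fe and 0.52, 0.32 and 0.30 after γ, and differed by -0.88. NF2, the tumour suppressor merlin, was at -0.13, -0.51 and -0.17 after Fe and 0.50, 0.49 and 0.28 after γ, and differed by -0.70. In all 3 genes every Fe run was below its mock and every γ run above it. LRRC8D, a subunit of volume-regulated anion channels, differed by -0.68, and the pseudogene INTS4P1, whose probe may also read its parent gene, by -0.70.

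BNC1, basonuclin, a zinc finger protein of basal keratinocytes, was at -0.40, -0.92 and -0.37 after Fe and 0.43, 0.32 and 0.14 after γ, and both of its probes were called, at -0.87 and -0.86. PKP3, plakophilin of desmosomes, differed by -0.87, whereas its other tested probes gave -0.74 with an adjusted p of 0.0701 and -0.06 with an adjusted p of 0.892. DDB1, the adaptor of the CUL4 ubiquitin ligase that recognizes ultraviolet lesions with DDB2, was at -0.44, -0.45 and -0.57 after Fe and 0.46, 0.33 and 0.31 after γ. It differed by -0.85, and its other probe by -0.65, both past the test. The adjusted p was 0.00951 for PABPC4, NF2, BNC1, PKP3 and DDB1, 0.00912 for LRRC8D and 0.00862 for INTS4P1.

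Of the 29 gene lists, each gene read from its brightest probe, 19 held at least 1 called gene at 24 h and 10 held none. Over all tested genes 1.99% were called higher after Fe and 1.2% lower. The difference was above 0 in 43% of all tested genes, with a median of -0.041. Of 24 immediate early genes, which serum and growth factors induce, 0 were higher and 2 lower after Fe, and the median difference was -0.481, with 22 below 0. MYC was at -0.39, -1.31 and -0.41 after Fe and 0.44, 0.43 and 0.21 after γ, a difference of -1.06 with an adjusted p of 0.0112. EGR1 was at -0.73, -1.05 and -0.38 after Fe and 0.35, 0.14 and 0.14 after γ, a difference of -0.93 with an adjusted p of 0.0412. Both were below the mock in every Fe run and above it in every γ run. Of 21 genes of ATF4 and the unfolded protein response 2 were lower, the partners of 1 amino acid transporter, SLC3A2 with -1.03 and SLC7A5 with -1.08, and the median was -0.423. Basal keratin and adhesion genes were below 0 in 15 of 17, with a median of -0.419, and genes of nucleotide, polyamine and ribosome synthesis in 24 of 26, with a median of -0.292. By their brightest probes, from which the lists are counted, none of either list was called. Other probes of PKP3 (-0.87) and LAMB3 (-0.89), an adhesion subunit of laminin, were called lower. In the same way ATP5PD and RPS29 were called higher and DUSP4 and CTBP1 lower by dimmer probes, outside the list counts. Without Fe 08C the median of the keratin list was -0.068, and 0 immediate early genes and 0 genes of ATF4 and the unfolded protein response were called.

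Ribosomal protein genes did not move as 1 block at 24 h. Of 45 tested 4 were higher, among them RPL34 with 1.35 and RPS15 with 1.21, and 2 lower, RPS23 with -0.60 and RPL22 with -0.48. The median was 0.149, against -0.041 over all tested genes, of which 1.99% were called higher and 1.2% lower. Of 14 metallothionein and metal handling genes 3 were higher. They were ATOX1, the copper chaperone, with 1.18, MT1G with 1.55 and MT1F with 1.21, the last of which belong to a family whose probes may read several members. MT1G was at 0.28, -0.91 and 0.71 after Fe and -2.15, -1.61 and -0.80 after γ, and here the runs overlapped. The median of the list was 0.12, and -0.06 with arrays scaled to a common median, where 0 of the 14 and 0 of the 45 ribosomal protein genes were called.

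The other lists held 1 or a few called members each, or none. ISG15, an interferon-induced ubiquitin-like protein, was at 0.30, 1.13 and -0.10 after Fe and -0.99, -0.56 and -0.90 after γ, a difference of 1.26 with an adjusted p of 0.0146. CXCL2, a neutrophil chemokine, was at -1.23, -1.75 and -0.32 after Fe and 0.38, 0.05 and 0.33 after γ, a difference of -1.36 with an adjusted p of 0.0218. Of 23 NRF2 target and glutathione genes 1 was lower, TKT, transketolase of the pentose phosphate pathway, by -0.93, and 1 higher, TXN, by 0.53. Of 18 acute phase genes 1 was higher, SAA1 by 1.10, and 1 lower, C1R by -0.50. GADD45A, a p53 target that restrains the cell cycle after damage, differed by -0.84. BIK, a BH3-only protein that promotes cell death, differed by 1.34 and KRT10, a keratin of differentiating keratinocytes, by 0.74. Of the 59 tested genes of a signature that the study drew from these same arrays to tell radiation types apart, 6 were higher after Fe and 0 lower. Because the signature was chosen on these samples, this count is not independent evidence, and without Fe 08C it was 0. Over all tested genes 1.99% were called higher and 1.2% lower. SLAMF9, 1 of the 6, was at 1.03, 1.76 and 0.67 after Fe and -0.57, -0.32 and 0.22 after γ, with a difference of 1.38 and an adjusted p of 0.00951.

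The 24 h calls were made of changes in both arms. Among the 346 probes higher after Fe the mean γ ratio was further from 0 than the mean Fe ratio in 256, and among the 225 lower in 62. Of the 346 probes higher after Fe, all 3 γ ratios were below 0 in 329 and all 3 Fe ratios above 0 in 173. Of the 225 lower, all γ ratios were above 0 in 192 and all Fe ratios below 0 in 195. These probes were chosen by the same difference, so the counts are a description. Tested on its own against mock, γ changed 163 probes at 24 h (0.669%), 22 up and 141 down, and Fe changed 7 (0.0287%), 1 up and 6 down. At an unadjusted p of 0.05 the order was the opposite, with 4541 probes for Fe (18.6%) and 2433 for γ (9.99%), and the SD over all probes was 0.193 for Fe and 0.158 for γ, so the calls do not rank the types by size of response. The medians of the 346 probes were 0.171, 0.875 and 0.039 in the Fe runs and -0.926, -0.436 and -0.351 in the γ runs. At 12 h they were 0.302, 0.002 and -0.048 in the Fe runs and -0.099, -0.142 and -0.272 in the γ runs. The mocks of Fe and of γ differed in 0 probes at 24 h (0%), with 331 below an unadjusted p of 0.05.

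**Figure D4:**
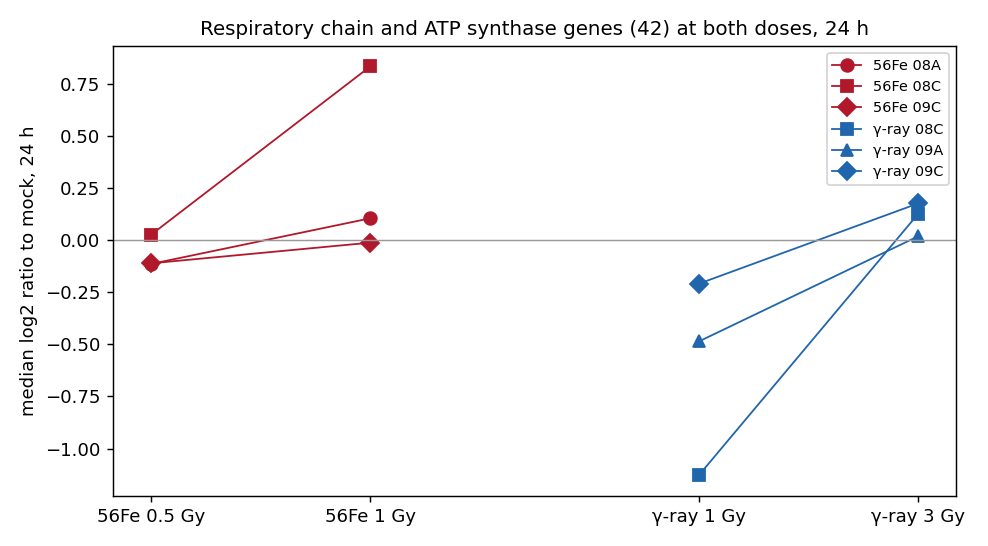
Median log2 ratio to mock of the respiratory chain list at 24 h (vertical axis) in each run, at 1 Gy and at the other dose of that radiation type, 0.5 Gy for Fe and 3 Gy for γ (horizontal axis), with lines joining the doses of a run. The 3 γ runs are below 0 at 1 Gy and above 0 at 3 Gy.

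The other dose of each radiation type did not show the 24 h values. Against the same mocks, the median of the respiratory chain list was -0.114, 0.027 and -0.111 after 0.5 Gy of Fe and 0.125, 0.018 and 0.176 after 3 Gy of γ. Thus each γ run was below its mock at 1 Gy and above it at 3 Gy. The mocks themselves were near the 0 h reference, with list medians of -0.036, 0.038 and 0.051 in the Fe runs and 0.018, 0.028 and -0.148 in the γ runs, and the 1 Gy samples were at 0.112, 0.934 and 0.027 and at -1.191, -0.343 and -0.315. C19orf33, for example, was at 0.32, 0.05 and 0.28 after 3 Gy of γ in the runs where 1 Gy gave -1.13, -0.74 and -1.12.

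The 24 h direction went with gene length. Genes higher after Fe had a median genomic span of 7.44 kb and those lower a median of 44.5 kb, against 26.3 kb over all tested genes, and the respiratory chain list had 7.86 kb. Both called sets were brighter than the tested genes, with a median mean log2 signal of 10.7 and 8.4 against 7.64. Over all genes at 24 h, the 1408 shortest, up to 3.61 kb, had medians of 0.010, 0.1 and -0.010 in the Fe runs and -0.072, -0.023 and -0.021 in the γ runs, and the 1408 longest, from 149 kb, of 0.012, -0.181 and -0.018 and of 0.047, 0.016 and 0.059. The part of length, signal or RNA quality in the 24 h difference was not tested. With the chip as a random block 146 probes were called at 24 h, 117 higher and 29 lower.

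The run Fe 08C stood apart at 24 h. The SD of its ratios over all probes was 0.499, whereas the other 5 runs were between 0.175 and 0.271. The fit took the spread as equal in all runs and times. Without Fe 08C in the fit 12 probes were called, and without its 24 h pair alone 48, an alternative added after the data were seen. Without γ 08C 0 probes were called and without γ 09A 2, whereas 1898 were called without Fe 09C, 1149 without Fe 08A and 281 without γ 09C. The respiratory chain list had 0 called genes without Fe 08C (median 0.661), without γ 08C (0.541) or without γ 09A (0.934), and 0 with arrays scaled to a common median (0.816). It had 1 without the 24 h pair of Fe 08C. The direction of its median was the same in these settings. The 16 genes named by smallest p kept their direction in every setting run. Of them 4 were past the test without Fe 08C, 2 without γ 09A, 0 without γ 08C and 0 with no mock subtraction. With median scaling 5 were, and without only the 24 h pair of Fe 08C 16 of 16 were. The plot of calls by setting shows the counts over all probes.

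**Figure D5:**
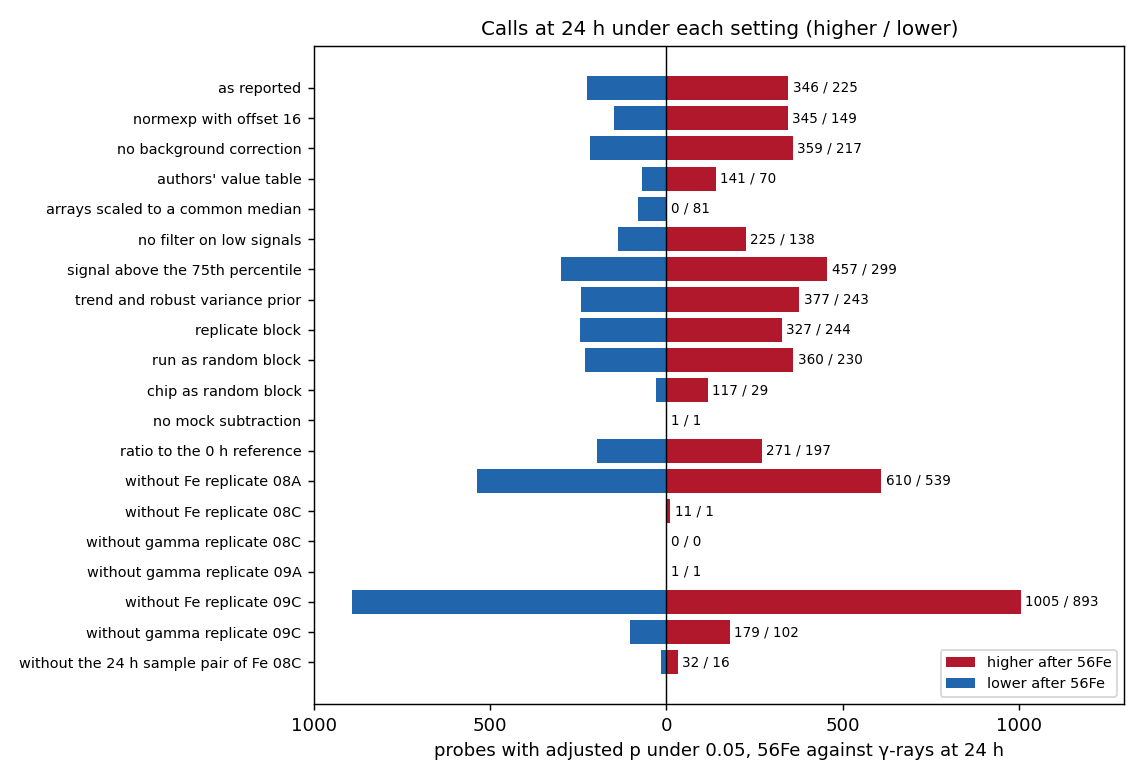
Number of probes with an adjusted p under 0.05 between Fe and γ at 24 h (horizontal axis, bars to the right for higher and to the left for lower after Fe) under each processing setting (vertical axis). The reported fit has 346 higher and 225 lower, and the count is 0 without γ 08C and 1898 without Fe 09C.

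Runs of 1 type resembled each other weakly at 24 h. Over all tested probes, which are not independent, Spearman's rho of the 24 h ratios was 0.094 to 0.225 between γ runs, -0.026 to 0.144 between Fe runs and -0.267 to 0.045 between runs of different types. The overall size of the response did not separate the types. The root mean square log2 ratio, averaged over the 4 times, was 0.207 ± 0.021 (SD, n = 3) after Fe and 0.193 ± 0.020 (SD, n = 3) after γ, and the difference of 0.014 had p = 0.5 in a two-sided exact permutation test over 20 divisions of the runs, where 0.1 is the smallest p the design allows.

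At 1 and 12 h and over the 4 times the named genes were not past the test. They were taken from probes with a gene symbol whose runs did not overlap. Among these, the smallest p-values at 1 h belonged to ZBTB6, CRCT1, PELI1, SPMIP4, CEBPD and KLF3. At 12 h they belonged to LYRM2, TCEAL9, FCGR2A, A1CF, PREX1 and GDF11, and each gene had an adjusted p of 1. Over the 4 times ACYP1 was higher by 0.36 (95% interval 0.22 to 0.49), SURF2 by 0.35 and GLRX, glutaredoxin, by 0.40, and NOMO2 was lower by -0.38, each with an adjusted p of 0.687. SLAMF9 differed by 0.49 (interval 0.22 to 0.75) and SUGCT, an enzyme of glutarate metabolism that the study lists by an older name, by 0.46 (interval 0.13 to 0.79), at the same adjusted p. At 24 h SUGCT was called higher after Fe, by 1.264 with an adjusted p of 0.0276 in limma. It was past that test in 12 of 19 alternative settings. The study names it among 7 genes of similar temporal pattern after all radiation types, over more doses than 1 Gy. Of 6 genes that the study ties to 1 radiation type, 0 were called at 24 h, where 1.99% of all tested genes were called higher and 1.2% lower. APH1B, which it ties to Fe, differed by -0.15 at 4 h and 0.58 at 24 h. SH3GL3 and THBS1, tied to γ, differed by 0.35 at 1 h and -0.68 at 24 h, and PLD3, tied to Si, by -0.48 at 24 h. GLUL, glutamine synthetase, differed by 0.09 (interval -0.18 to 0.36) and PLD1, a phospholipase D, by 0.00 (interval -0.17 to 0.17). These intervals bound the differences and do not show that the types acted alike.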

How the data were processed

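RNA from HBEC3KT cells was hybridized to Illumina HumanWG-6 V2 arrays. The deposited bead signal intensities were extracted by the authors in BeadStudio without normalization. A deposited value table, on the log2 scale, held the authors' background-subtracted and quantile-normalized values and was used as an alternative. It matched the bead signals of the same array best in 134 of 134 columns. Here the intensities were background-corrected with normexp (offset 50), quantile-normalized over the 134 arrays and log2-transformed in limma 3.58.1 under R 4.3.3. Of 48701 probes, the 24350 whose mean over the arrays exceeded 6.22, the median over the array, entered the tests. Symbols of 16575 of these came from the platform annotation, updated by Entrez ID (16469), accession (30) or left as listed (76), and covered 14123 genes. A gene in a list was read from its probe with the highest mean signal. Technical replicates were averaged, and log2 ratios of 1 Gy to the mock of the same run and time were fitted in limma (24 ratios, 16 residual degrees of freedom) with Benjamini-Hochberg adjustment over all tested probes at 0.05. The mean over the 4 times was fitted on the 6 run means. Named genes were the 8 with the smallest p in each direction among called probes whose runs did not overlap. Where fewer than 4 were called, they were the 6 with the smallest p among probes whose runs did not overlap. The genes that the study names and up to 3 of each list were added, and values are given for some of them. BTG2 is not analysed here. The 29 lists (632 of 729 genes tested), the rule and the comparison were chosen with earlier results of these data known. The study's methods list shared experiment dates for Fe and γ, without replicate codes. Replicates 08C and 09C, which occur in both radiation types, were read as shared campaigns. Their deviations correlated between -0.232 and 0.104. The reported fit treats the 6 runs, and the 4 ratios of a run, as independent, and the replicate block is an alternative. Alternatives changed the background correction, normalization, filter, variance prior, blocks, reference and runs left out. The number of runs and arrays limits the precision. Promoters are from RefSeq (GRCh38.p14). The fit was tested on simulated data.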

Additional observations from a re-analysis of the deposited data

Results flagged for a closer look

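The test of the difference between the radiation types at 24 h marked 571 probes for a closer look, and with them the 16 genes of smallest p, whose Fe and γ runs lay apart in the same contrast against mock. Higher after Fe on the log2 scale were C19orf33 by 1.219, POLR2I by 1.196, ACYP1 by 0.860, SNRPB2 by 1.099, BOLA2 by 2.027, ROMO1 by 1.570, ATP5PF by 0.869 and BOLA3 by 0.960. Lower after Fe were NCOA7 at -1.017, INTS4P1 at -0.696, LRRC8D at -0.678, NF2 at -0.696, PABPC4 at -0.875, BNC1 at -0.866, PKP3 at -0.874 and DDB1 at -0.853. The calls rest on runs that change the count when left out, 0 without γ 08C, 2 without γ 09A and 12 without Fe 08C.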

How the results depend on the processing

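At 24 h the 571 called probes became 211 with the authors' normalized values, 81 with arrays scaled to a common median, 363 with no filter on low signals, 146 with the chip as a random block, 2 with no mock subtraction and 48 without the 24 h pair of Fe 08C, a setting chosen after seeing the data. They were 468 with ratios to the 0 h reference, of which 193 were among the 571. Leaving out 1 run gave 0 (without γ 08C) to 1898 (without Fe 09C). With the replicate block, in which 08C and 09C pair the types, 571 were called at 24 h, of which 379 were the same probes, and 0 in the other Fe against γ contrasts. Leaving out 1 run gave 0 to 1 probes at 1 h (1 without Fe 08C) and 0 to 242 over the 4 times (242 without Fe 09C). The shared response at 4 h, 1 probe, became 3 with an offset of 16, 0 with the authors' values, 0 with median scaling, 2 with no filter, 2 above the 75th percentile of signal, 0 with a trended robust prior and 0 to 1 without a run (the 1, without γ 08C, is not TIGAR, which was lost without any of the 6 runs). With median scaling 1 probe was shared at 12 h and 1 at 24 h. The difference in response size of 0.014 was -0.00982 with the authors' values and -0.0304 with median scaling. Directions turned for PELI1 at 1 h (-0.042 with no mock subtraction, -0.093 with the 0 h reference) and, with the 0 h reference, for CDCA7 (0.58) and E2F2 (0.053) at 4 h and SMIM26 over the 4 times (-0.18). The causes were not tested. With 3 runs a type, the number of runs limits what can be called.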
